A study of Gallus gallus with 12 samples.

Results

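Chicken embryonic fibroblasts (CEF) that had been grown in culture were compared with the 3 groups of the series that had not: whole blastoderm, gonadal stromal cells (GSC) and primordial germ cells (PGC). The CEF samples are 3 of the 12 Affymetrix chicken arrays, chosen by their sample titles and not by any measured value. All samples came from White Leghorn chickens, and each array was hybridised with 5 µg of total RNA from an independent biological sample. Each CEF sample held 6000000 cells from 5 embryos of 6.5 days of incubation, grown to passage 2 in serum-containing medium. Their labelled source is the muscular region in one place and the embryonic body in another. Each GSC sample held 9000000 cells and each PGC sample 270000 cells, magnetically sorted from the gonads of 100 embryos of mixed sex and the same incubation age. Each blastoderm sample held 530000 cells from 5 freshly laid eggs at stage X, before incubation. CEF therefore differ from every other group by culture and by tissue of origin at once, from blastoderm also by age, and from GSC and PGC also by the sort. The share of a difference that belongs to any of these cannot be told apart.

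Fibroblasts are the connective tissue cells that lay down collagens, fibronectin and the other fibres of the extracellular matrix. On a culture dish they spread, anchor through integrins at focal adhesions and bundle actin into stress fibres, and serum supplies them with growth factors. Chicken embryonic fibroblasts have long served as feeder layers and as hosts for growing viruses, and like other primary cells they slow and stop dividing after a limited number of passages.

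A gene was called higher (or lower) in CEF when its mean differed in that direction from each of the 3 other group means, at an adjusted p below 0.05 in all 3 limma comparisons. The p given is the largest of the 3. The gap is the CEF mean minus the nearest of the other group means, on the log2 scale, and genes were ranked by it. Where a gene has several probe sets, the brightest over all 12 arrays stands for it, which left 13008 genes. Probe sets for virus and reporter sequences put the background at 3.61 on the log2 scale, and where the dimmer side lay at or under it the fold is given as "at least".

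The 12 arrays had medians between 3.45 and 3.60. The 3 CEF arrays correlated with each other at 0.980 to 0.987 over all probe sets, and the median correlation of CEF with other arrays was 0.895 for GSC, 0.874 for PGC and 0.850 for blastoderm, as a description of arrays that share 1 normalisation. The median SD per probe set was 0.184 in CEF and 0.159 to 0.240 in the other groups. Loss of RNA 5′ ends was gauged by how far the 3′ control probe sets of actin and GAPDH exceeded their 5′ counterparts, which was on average 0.67, 0.34 and 0.02 on CEF arrays 1, 2 and 3. Over 20 exact two-sided permutation tests of RNA quality and spike-in controls, the smallest p was 0.1, the lowest that 3 arrays against 3 allow, and no adjusted p was below 0.5. The poly-A spikes added to the RNA read 6.33 ± 0.48 in CEF (SD, n = 3), against 4.62 in blastoderm, 4.64 in GSC and 7.05 in PGC. The hybridisation spikes read 8.61 ± 0.03 in CEF (SD, n = 3), against 8.60 in blastoderm, 7.84 in GSC and 8.46 in PGC. The part of RNA quality, labelling and hybridisation in the differences below was not tested.

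The labels were first set against genes that define fibroblasts. COL1A1, a chain of the main fibrillar collagen, read 12.74, 12.74 and 12.44 on the CEF arrays, against 3.60 to 3.65 in blastoderm, 10.85 to 11.14 in GSC and 8.74 to 10.29 in PGC. All CEF arrays lay above all others, with GSC nearest, and the gap was 1.63 (SE 0.28, 3.10-fold, adjusted p = 0.000261). COL1A2, its partner chain, had a gap of 1.46 (adjusted p = 0.000556), and the adhesive glycoprotein FN1 one of 2.28 (4.87-fold, adjusted p = 2.42e-07). The intermediate filament gene VIM was 1.47-fold higher than in the nearest group (adjusted p = 0.0112). COL3A1, another fibrillar collagen, read 11.46 ± 0.22 in CEF and 11.22 ± 0.10 in GSC (SD, n = 3 each), a difference of 0.25 that did not pass (adjusted p = 0.317). PDGFRA, a receptor that marks many mesenchymal cells, did not follow the label: at 2.39, 3.23 and 2.45 it lay under the background in CEF, and was lower there than in blastoderm (adjusted p = 0.00027) and GSC (adjusted p = 1e-05).

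Myogenic cells were looked for because of the labelled source. The muscle regulators MYOD1, MYF5, MYOG and PAX7 had CEF means of 3.03, 2.78, 3.51 and 2.54, all at or under the background. Over the whole list, of 23 skeletal muscle genes 6 were higher in CEF than in each other group (26.1%) and 0 lower, among them ACTA1, described further on with the summed level of the list. DES, the muscle intermediate filament, read 3.73 ± 0.07 in CEF (SD, n = 3), between the other group means. Named after their values were seen, the skeletal muscle genes MYH1E (5.45, gap 3.85) and TNNI2 (3.93, gap 1.00) were above the background in CEF alone. MYH1E is not in the list of 23, and genes picked on these values give no separate support. The smooth muscle myosin MYH11 was under the background at 2.23. Of 11 smooth muscle and pericyte genes, however, 4 were higher (36.4%, against 10.7% of all genes) and 0 lower. They were ACTA2, TAGLN, ACTG2 and the regulator MYOCD, which read 4.59 in CEF (gap 1.61). ACTA2, TAGLN and ACTG2 are also members of the contractile cytoskeleton list below. Against GSC alone 4 of the 11 were higher and 2 lower. The list medians were 4.10 to 4.96 in CEF, 4.69 to 5.31 in GSC, 3.78 to 4.72 in PGC and 3.22 to 3.64 in blastoderm.

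Of 13008 genes, 3120 were higher in CEF than in blastoderm (24%) and 3533 lower (27.2%). Against GSC 2630 genes were higher (20.2%) and 2904 lower (22.3%), and against PGC 2859 were higher (22%) and 3599 lower (27.7%). Against each of the 3 groups, 1386 genes were higher in CEF (10.7%) and 1211 lower (9.31%), and without overlap of arrays 10.2% were higher and 8.99% lower. In either direction 51.1% of genes differed from blastoderm, 42.5% from GSC and 49.6% from PGC. The median difference over all genes was -0.05 from blastoderm, 0.02 from GSC and 0.01 from PGC. These are the values against which every gene group below is to be read. In bulk RNA a lower level may reflect fewer cells of a type or less RNA per cell, which cannot be told apart here. Over all 37693 probe sets, 18.2% were higher and 20.6% lower than in blastoderm (38.8% in all), 16% and 17.8% than in GSC (33.8%), and 19% and 19.6% than in PGC (38.6%). Against each group 8.23% of probe sets were higher and 6.62% lower, or 7.79% and 6.24% without overlap. The balance of the calls depended on the scaling: with each array centred on its median, 8065 probe sets were higher and 5871 lower than in GSC, and 8727 and 6842 than in PGC, against 6029 and 6715, and 7168 and 7376, as deposited. The median gap was 1.14 among the higher and -0.92 among the lower genes, and the largest gaps were on the higher side: 52 genes stood at least 4 log2 units above the nearest group and 15 as far below it. GSC were the nearest group for 653 of the higher genes (47.1%), blastoderm for 407 (29.4%) and PGC for 326 (23.5%).

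The 20 genes that rose farthest above all other samples are described by what they encode, beginning with secreted factors. INHBA, which encodes the subunit of activin A, read 10.60, 10.64 and 10.91 in CEF against 2.34 to 3.02 on the other 9 arrays. Every CEF array was high and every other array under the background, and the gap was 7.93 (SE 0.19, at least 138-fold, adjusted p = 6.7e-14). FGF2, a growth factor that drives fibroblast division, read 8.05, 8.07 and 8.34 against 2.04 to 3.23 elsewhere (gap 5.04, at least 23.3-fold, adjusted p = 4.5e-12). The chemokine CCL4 read 9.17, 9.37 and 9.53 against 2.50 to 3.36, again with every other array under the background (gap 6.12, at least 53.8-fold, adjusted p = 1.05e-12). C1QTNF3, a secreted protein related to complement C1q and made by mesenchyme, varied most of the 20 among the CEF arrays, at 7.87, 8.77 and 5.99. Its gap was 5.56 (adjusted p = 3.46e-08), 4.94 without CEF replicate 2 and 6.34 without replicate 3.

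**Figure D1:**
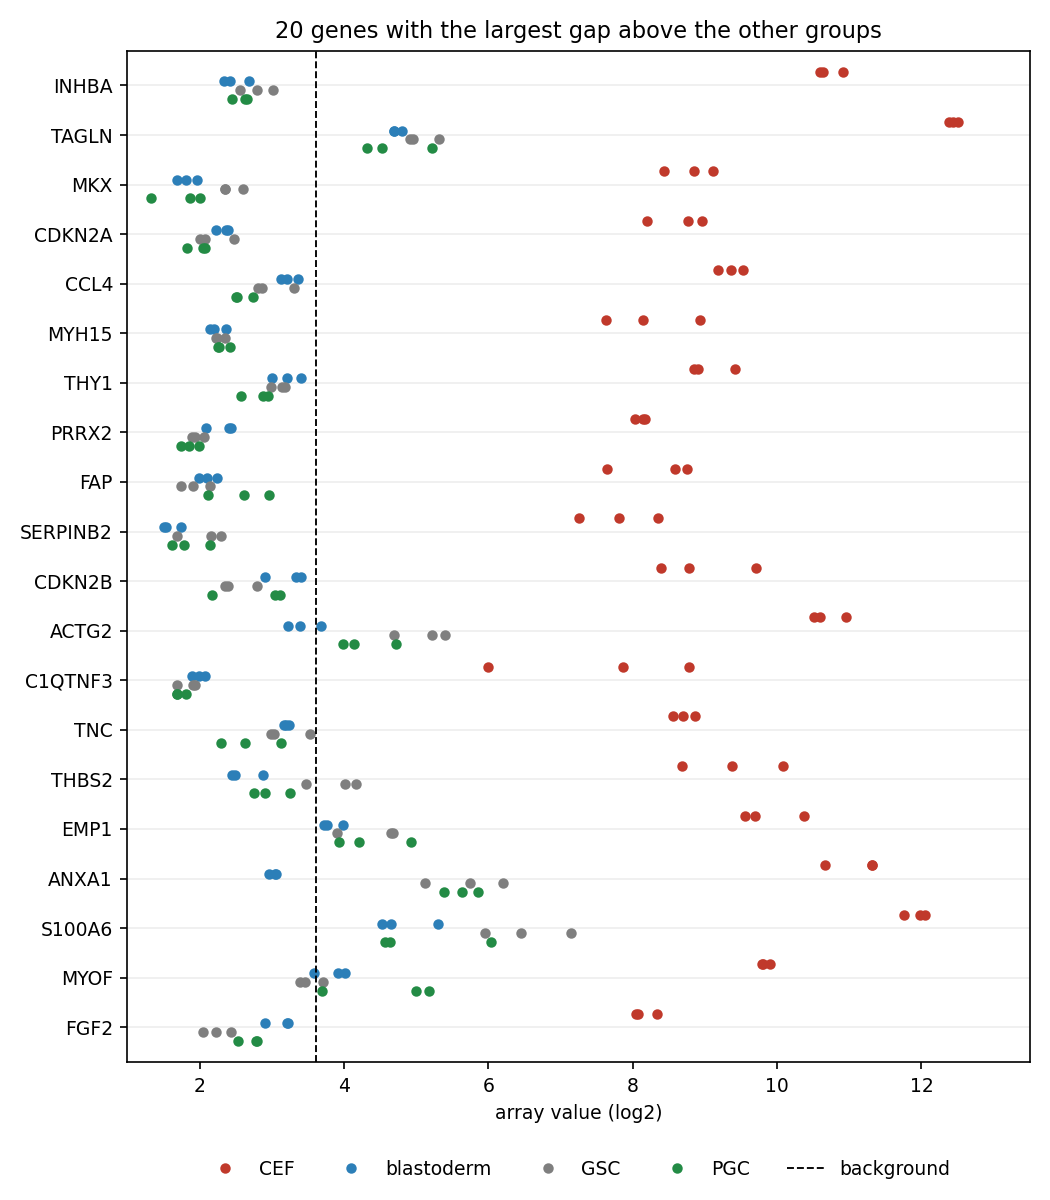
Each dot is 1 array's deposited log2 value (horizontal axis) for the 20 genes with the largest gap above the nearest other group, coloured by group, with 3 arrays a group and the background of 3.61 as a dashed line. Genes were chosen without overlap of arrays, so in each row the 3 CEF dots lie to the right of all 9 others. For INHBA the other 9 lie between 2.34 and 3.02.

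Of contractile genes, TAGLN, the actin-binding protein transgelin, read 12.38, 12.51 and 12.43 in CEF. On the other arrays it read 4.69 to 4.80 in blastoderm, 4.91 to 5.31 in GSC and 4.31 to 5.22 in PGC. It was thus measured in every group and highest in CEF by 7.38 (SE 0.22, 167-fold, adjusted p = 6.72e-13). ACTG2, an actin of smooth muscle, had CEF values of 10.51, 10.96 and 10.60 and a gap of 5.58 (47.9-fold). MYH15, a myosin heavy chain, read 8.93, 8.14 and 7.63, with a gap of 5.92 (at least 24.7-fold).

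Of regulators, MKX, a homeobox factor of tendon, read 8.85, 9.11 and 8.43 (gap 6.36, at least 36.4-fold, adjusted p = 2.99e-12). PRRX2, a homeobox factor of limb and dermal mesenchyme, read 8.04, 8.14 and 8.17 (gap 5.80, at least 22.7-fold, adjusted p = 3.4e-13). No array of another group passed the background for either. THY1, a surface glycoprotein used to mark fibroblasts, read 9.42, 8.85 and 8.91 against 2.57 to 3.40 elsewhere (gap 5.85, at least 43.7-fold). FAP, a surface protease of activated fibroblasts, read 7.64, 8.59 and 8.75 (gap 5.76, at least 26.4-fold). The matrix glycoproteins TNC and THBS2 had gaps of 5.5 and 5.49, the membrane proteins EMP1 and MYOF gaps of 5.46 and 5.21, and the calcium-binding proteins ANXA1 and S100A6 a gap of 5.41 each. SERPINB2, an inhibitor of plasminogen activators, had a gap of 5.76 (at least 18.3-fold).

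CDKN2A, a gene of the INK4/ARF locus that in chickens is known for ARF, a regulator of MDM2 and p53, read 8.76, 8.20 and 8.96 in CEF against 1.82 to 2.48 elsewhere (gap 6.31, SE 0.21, at least 32.7-fold, adjusted p = 1.88e-12). CDKN2B, its neighbour and an inhibitor of cyclin-dependent kinases, read 8.77, 8.39 and 9.70 against 2.17 to 3.40 (gap 5.74, at least 40.7-fold, adjusted p = 3.33e-10). Both were above the background on the 3 CEF arrays and on no other. Just past the 20 came ITGA11 and SULF1, with gaps of 5.00 and 4.98.

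Matrix and contractile genes held high shares of higher genes. Of 42 measured genes of fibroblast identity and matrix, 26 were higher than in each other group (61.9%) and 0 lower. Their median level by array was 8.64 to 9.03 in CEF, 6.95 to 7.06 in GSC, 5.14 to 6.56 in PGC and 3.46 to 3.65 in blastoderm. The median difference of the list was 4.88 from blastoderm, 1.52 from GSC and 2.79 from PGC. Taken by group, 36 were higher and 3 lower than in blastoderm, 26 and 6 than in GSC, and 33 and 3 than in PGC. Among the 16 not called, and named after their values were seen, DCN (adjusted p = 0.186), PDGFRB (adjusted p = 0.0577) and SPARC (adjusted p = 0.256) missed the threshold against their nearest group. Of 27 contractile cytoskeleton genes, 20 were higher (74.1%) and 0 lower, and their median level was 10.33 to 10.37 in CEF against 6.36 to 7.93 on the other arrays, with median differences of 2.39, 1.75 and 2.18 in the same order. ACTA2, the stress fibre actin of myofibroblasts, read 6.05 ± 0.26 in CEF (SD, n = 3) with a gap of 3.88 (at least 5.44-fold, adjusted p = 2.44e-10). ACTB, the cytoplasmic actin often used as a reference gene, was itself higher, by 1.49-fold over the nearest group (adjusted p = 1.3e-06). GAPDH read 12.23 ± 0.04 with a gap of 0.21 that did not pass (adjusted p = 0.116).

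**Figure D2:**
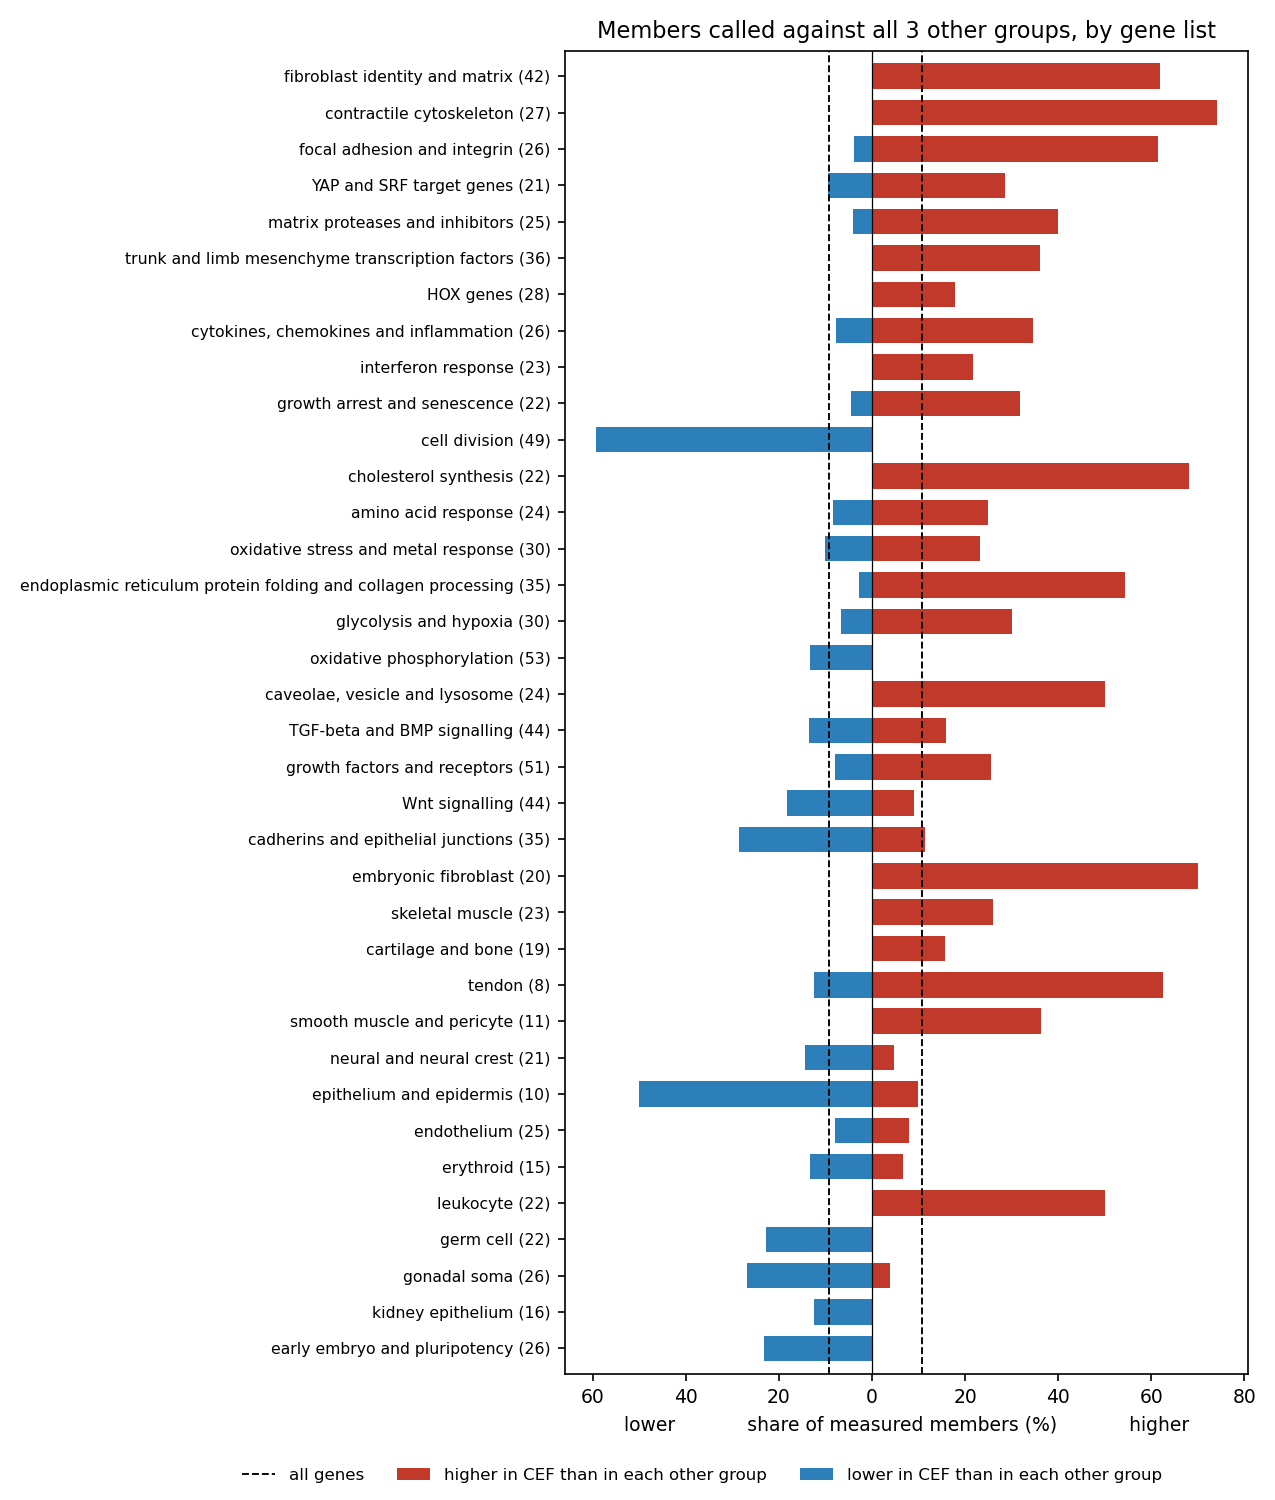
For 36 gene lists (measured members in brackets), the bars give the percentage of members higher in CEF than in each other group (to the right) and lower than in each (to the left). Dashed lines mark the shares over all genes, 10.7% and 9.31%, and contractile cytoskeleton (74.1%) and cell division (59.2%) reach farthest to either side.

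Of 26 focal adhesion and integrin genes, 16 were higher (61.5%) and 1 lower. ITGA11, a collagen receptor subunit, had a gap of 5.00 (at least 25.1-fold), the calpain protease subunit CAPN2 a gap of 4.87 (29.3-fold) and the hyaluronan receptor CD44 a gap of 4.30 (19.7-fold). The lower member was TLN2, the less widespread talin (gap -0.89, adjusted p = 0.00734). Of 21 genes known as targets of the mechanically regulated factors YAP and SRF, 6 were higher (28.6%) and 2 lower (9.52%). ANKRD1, a much used readout of YAP, read 7.79, 7.84 and 8.46 in CEF against 1.78 to 3.84 elsewhere (gap 4.67, at least 20-fold, adjusted p = 1.92e-09). CCN3, a matricellular protein, and CRIM1, a membrane protein that binds BMPs, had gaps of 2.02 and 1.85. The lower members were the immediate early genes JUN, 2.27-fold under the nearest group (adjusted p = 0.000425), and FOS, which was under the background on all arrays. Of the 21, 9 were higher and 7 lower than in GSC, 14 and 2 than in PGC, and 10 and 4 than in blastoderm. Of 25 matrix proteases and their inhibitors, 10 were higher (40%), led by the collagen-degrading cathepsin CTSK at 8.89, 9.28 and 9.18 (gap 3.57, 11.9-fold), with the gelatinase MMP9 at a gap of 2.05. ADAMTS9, a protease that cleaves versican, was lower (gap -0.99).

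Of 36 measured transcription factors of trunk and limb mesenchyme, 13 were higher in CEF than in each other group (36.1%), 0 were lower and 23 were neither. The median difference of the list was 0.68 from blastoderm, 0.51 from GSC and 1.03 from PGC. TWIST1, a basic helix-loop-helix factor of mesenchyme, read 8.67, 8.48 and 8.99 in CEF against 2.73 to 2.81 in blastoderm, 3.50 to 4.43 in GSC and 2.58 to 3.19 in PGC. The CEF arrays stood far above the rest (gap 4.90, SE 0.26, 29.8-fold, adjusted p = 3.54e-10). PRRX1, the paralogue of PRRX2, had a gap of 2.15 (4.45-fold). MEOX2, a somite and limb muscle homeobox factor, read 6.84, 5.98 and 7.57 (gap 3.82, at least 9.11-fold). Of 28 HOX genes, which mark position along the body and limb axes, 5 were higher (17.9%) and 0 lower: HOXD10, HOXD11, HOXD12, HOXD13 and HOXB4. HOXD11 read 6.15, 5.39 and 4.69 against 2.39 to 3.25 elsewhere (gap 2.27, at least 3.48-fold, adjusted p = 1.34e-05). HOXD13 had a gap of 0.90, and HOXD12 had a CEF mean of 2.61, under the background. The HOX count was 3 without CEF replicate 1, without CEF replicate 3 and without PGC replicate 1, and 1 of 14 when genes dim over all arrays were left out. Against GSC alone, 10 of the 28 HOX genes were higher and 7 lower, with a median difference of -0.03. The counts were 10 and 2 against PGC (0.34) and 17 and 1 against blastoderm (0.72). Their summed linear level was 710 to 818 on the CEF arrays, 1301 to 1825 in GSC, 439 to 1022 in PGC and 293 to 314 in blastoderm.

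Signalling ligands and receptors were called in both directions, as were genes over the whole array (10.7% higher and 9.31% lower). Of 44 genes of TGF-beta and BMP signalling, 7 were higher (15.9%) and 6 lower (13.6%). Against GSC alone 11 were higher and 18 lower, with a median difference of -0.20. The counts were 16 and 7 against PGC (0.31) and 13 and 16 against blastoderm (0.02). TGFB1, the ligand best known for inducing matrix genes, read 8.55, 7.61 and 8.63 in CEF (gap 3.10, 8.57-fold, adjusted p = 3.3e-08). TGFBI, a matrix protein named for its induction by that ligand, had a gap of 3.66 (12.7-fold). On the lower side were the ligand BMP7, at 2.61, 2.44 and 2.75 against 4.69 to 7.93 elsewhere (gap -2.60, at least 3.01-fold), the BMP antagonist CHRDL1 (gap -2.04) and the SMAD co-repressor SKIL (gap -1.13). Another SKIL probe set had a gap of -0.12 (adjusted p = 0.777), and the SKIL call was lost when all its probe sets were averaged.

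Of 51 growth factors and receptors, 13 were higher than in each other group (25.5%) and 4 lower (7.84%). Against GSC alone 15 were higher and 19 lower, with a median difference of -0.10. The counts were 23 and 13 against PGC (0.36) and 26 and 9 against blastoderm (0.64). BDNF, a neurotrophin, read 7.98, 8.32 and 8.38 against 2.42 to 3.97 on the other arrays (gap 4.45, 21.9-fold, adjusted p = 4.24e-11). IGFBP4, which binds insulin-like growth factors, had a gap of 3.50 (11.3-fold). The receptor FGFR3 was 7.53-fold lower than in the nearest group (gap -2.91, adjusted p = 1.28e-07). Of 44 Wnt pathway genes, 4 were higher (9.09%) and 8 lower (18.2%). The ligand WNT9A read 7.60, 7.67 and 6.83 (gap 3.26, 9.56-fold), while the co-receptor LRP5 (gap -2.22), the secreted inhibitor SFRP2 (gap -1.56) and the ligand WNT11 (gap -1.18, adjusted p = 0.00507) were lower. With an offset of 64 added to the linear values before the logarithm, 4 Wnt genes and 2 growth factor genes were lower, and without dim genes 2 of 31 Wnt genes were higher. WNT11 lost its call with an offset of 16 or 64, and when all probe sets of the gene were averaged.

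Of 26 cytokine, chemokine and inflammation genes, 9 were higher (34.6%) and 2 lower (7.69%). Besides CCL4 these included TNFAIP6, a hyaluronan-binding protein induced in inflammation (gap 3.02, 8.1-fold), and the cytokine LIF at 7.03, 6.38 and 6.77 against 3.19 to 4.0 elsewhere (gap 2.89, 7.40-fold, adjusted p = 9.21e-09). TNFAIP3, an inhibitor of NF-kappaB signalling, was lower: it read 3.51, 3.35 and 3.80 in CEF and 5.25 to 7.24 on the other arrays (gap -2.00, at least 3.67-fold, adjusted p = 1.74e-06). NOS2, the inducible nitric oxide synthase, passed narrowly on the lower side (gap -0.61, adjusted p = 0.0447). Against GSC alone 11 of the 26 were higher and 6 lower, with a median difference of 0.03. The counts were 13 and 4 against PGC (0.53) and 11 and 3 against blastoderm (0.36). Of 23 interferon response genes, 5 were higher (21.7%) and 0 lower. The nucleic acid sensors and effectors ZNFX1, TRIM25 and IFIH1 had gaps of 1.69, 1.23 and 1.02, and the IFIH1 gap was 0.62 without PGC replicate 3. Without dim genes 3 of 14 were higher.

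Of 22 measured leukocyte markers, 11 were higher in CEF (50%) and 0 lower. PTPRC, the CD45 antigen of all leukocytes, read 7.51, 7.32 and 8.04 in CEF, against 2.00 to 2.70 in blastoderm, 4.19 to 4.74 in GSC and 3.03 to 3.15 in PGC (gap 3.14, SE 0.24, 8.79-fold, adjusted p = 3.05e-08). All CEF arrays were high and no other array passed 4.74. The complement gene C1QB, made by macrophages, read 6.26, 5.33 and 7.14 (gap 2.96, at least 6.22-fold). LY86, a myeloid surface protein, read 6.41, 5.09 and 7.74 (gap 3.10, 2.44 without CEF replicate 3 and 3.77 without replicate 2). SPI1, the transcription factor PU.1 of myeloid cells, read 4.97, 3.91 and 6.70.

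The CEF arrays differed in this list, with replicate 3 the highest. The summed linear level of the 22 markers was 1128, 778 and 1996 on the CEF arrays, against 309 to 385 in blastoderm, 419 to 434 in GSC and 318 to 408 in PGC. Between 16 and 17 of the 22 were above the background on each CEF array and 8 to 10 on each other array. The T cell marker CD3E, the lysozyme gene LYZ and the lymphoid factor IKZF1 were at or under the background in CEF, and the macrophage receptor gene CSF1R was not called (adjusted p = 0.648 against its nearest group). The part of leukocytes in the inflammation, protease and lysosome results was not tested.

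Of 22 genes of growth arrest and senescence, 7 were higher in CEF than in each other group (31.8%), 1 was lower (4.55%) and 14 were neither. The median difference of the list was 0.43 from blastoderm, -0.05 from GSC and 0.58 from PGC. CDKN1A, the p53-induced inhibitor of cyclin-dependent kinases, read 9.46, 9.37 and 9.76 in CEF, 6.41 to 6.85 in blastoderm, 4.58 to 4.71 in GSC and 4.76 to 5.14 in PGC. The gap to blastoderm was 2.85 (SE 0.19, 7.21-fold, adjusted p = 4.42e-09). MDM2, the p53-induced ubiquitin ligase that degrades p53, read 7.72, 7.0 and 7.63 (gap 2.52, 5.74-fold, adjusted p = 5.24e-05). The lower member was GADD45G, a stress-induced growth arrest gene (gap -0.65, adjusted p = 0.0378), which lost its call without CEF replicate 1, where the gap was -0.33. The call was also lost without blastoderm replicate 1, 2 or 3, where the gap was -0.65 each time, without GSC replicate 2 and when only the groups compared entered the fit.

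Of 49 cell division genes, 0 were higher and 29 lower (59.2%), and CEF had the lowest of the 4 group means in 39. Their median level by array was 6.79 to 7.04 in CEF, 8.70 to 8.87 in blastoderm, 7.79 to 8.10 in GSC and 7.58 to 8.05 in PGC, with a median difference of -1.66 from blastoderm, -0.70 from GSC and -0.73 from PGC. CKS2, a subunit of mitotic kinases, read 6.48, 6.68 and 6.73 in CEF against 8.29 to 9.56 elsewhere (gap -2.03, SE 0.18, 4.10-fold, adjusted p = 1.42e-07). TYMS, which makes thymidylate for DNA synthesis, read 7.01, 6.45 and 6.72 against 8.23 to 9.91 (gap -1.65, 3.13-fold). MCM2, a subunit of the replicative helicase, read 7.03, 6.56 and 6.82 against 8.18 to 9.05 (gap -1.53, 2.88-fold). All 3 were lower on every CEF array than on every other array, which the rule for naming them required. Over all genes, 8.99% were called lower without overlap. The transcripts were still well above the background in CEF, and with a minimum change of 2-fold against each group 4 of the 49 were lower. Named after their values were seen, MAD2L1, PCNA and CDK1 had gaps of -1.40, -1.11 and -1.08, whereas MKI67 at 7.80 ± 0.24 and TOP2A at 8.75 ± 0.29 (SD, n = 3) lay beside PGC, at 7.77 and 8.84, and were not called.

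**Figure D3:**
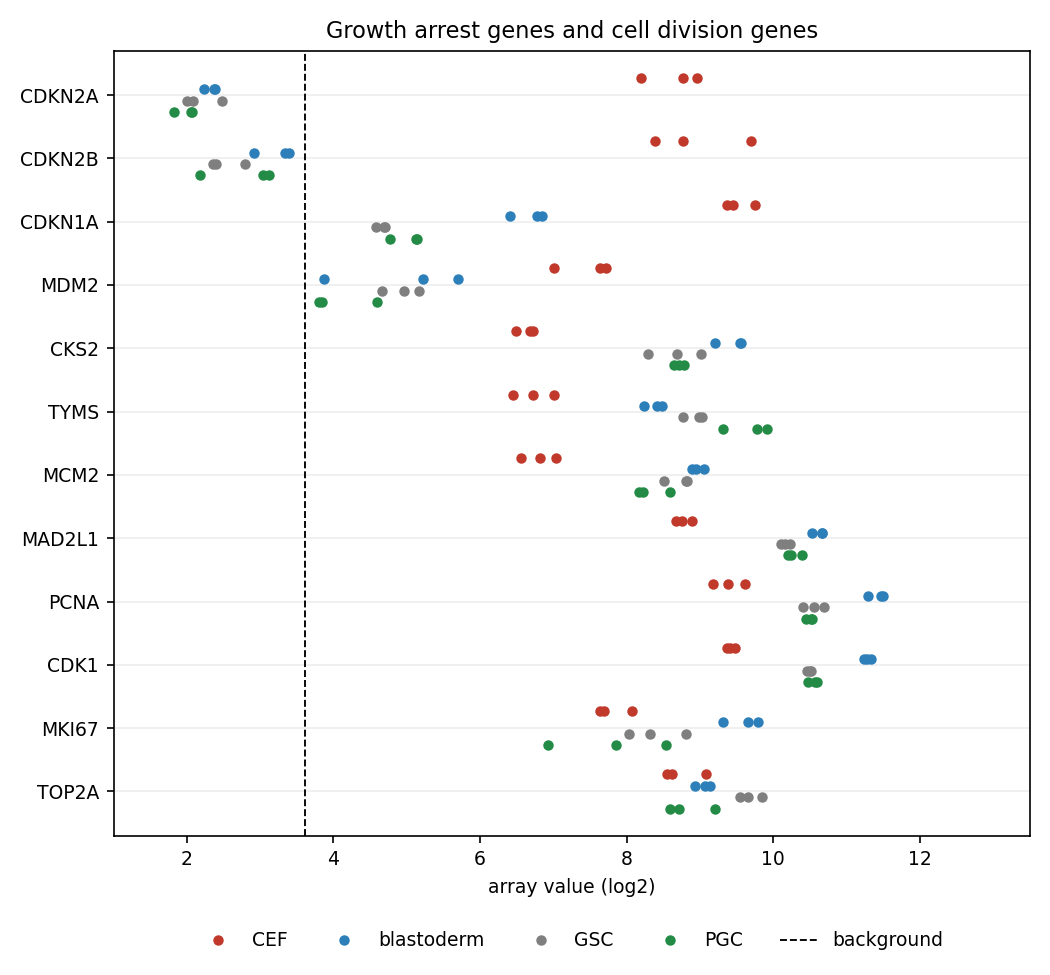
Deposited log2 value (horizontal axis) of 4 growth arrest genes and 8 cell division genes, with 1 dot per array coloured by group, 3 arrays a group, and the background of 3.61 dashed. CDKN2A is at 8.20 to 8.96 in CEF and at or under 2.48 elsewhere, while CKS2 is at 6.48 to 6.73 in CEF and at or above 8.29 elsewhere.

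Of 22 measured genes of cholesterol synthesis, 15 were higher (68.2%) and 0 lower, and the median level was 8.30 to 8.51 in CEF against 6.03 to 7.14 on the other arrays, with a median difference of 1.85 from blastoderm, 1.45 from GSC and 1.73 from PGC. FDPS, the farnesyl diphosphate synthase that feeds sterol and prenyl synthesis, read 9.15, 9.04 and 8.94 in CEF against 5.41 to 6.30 elsewhere (gap 2.97, SE 0.22, 7.82-fold, adjusted p = 2.25e-08). INSIG1, the sterol sensor that retains the SREBP complex in the endoplasmic reticulum, had a gap of 2.52 (5.73-fold), and the sterol carrier STARD4 one of 2.25 (4.76-fold). VLDLR, a receptor for lipoprotein particles, was counted in the amino acid response list as a target of ATF4 and went the other way, at 5.78, 4.92 and 6.07 against 7.60 to 9.02 elsewhere (gap -2.40, 5.29-fold, adjusted p = 1.15e-06).

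Of 35 genes for folding and modifying secreted proteins, 19 were higher (54.3%) and 1 lower (2.86%). P4HA3, P4HA2 and P4HA1 encode catalytic subunits of the enzyme that hydroxylates collagen prolines. P4HA3 read 6.84, 7.15 and 6.38 (gap 3.27, at least 8.98-fold), and the gaps of P4HA2 and P4HA1 were 2.36 and 1.55. SEC23A, a coat protein of the vesicles that export procollagen, had a gap of 2.42 (5.37-fold). The lower member was COLGALT1, a collagen galactosyltransferase (gap -1.49). Of 24 caveola, vesicle and lysosome genes, 12 were higher (50%) and 0 lower. CAV1, the main caveola protein, read 6.97, 6.49 and 6.88 against 1.94 to 2.50 elsewhere (gap 4.44, at least 9-fold, adjusted p = 3.03e-11), and its partner CAV2 had a gap of 2.84 (7.15-fold).

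Energy and stress genes were mixed. Of 30 glycolysis and hypoxia genes, 9 were higher (30%) and 2 lower (6.67%). The enolase ENO2 (gap 2.06) and the phosphofructokinase PFKP (gap 1.36) were higher, and CA9, a hypoxia-induced carbonic anhydrase, was lower at 3.13, 3.63 and 3.13 against 6.22 to 9.0 elsewhere (gap -3.30, at least 7.90-fold). Of 53 oxidative phosphorylation genes, 0 were higher and 7 lower (13.2%), 4 without CEF replicate 2. The largest gaps among these 7 were -0.73 for COX7A2L and -0.66 each for NDUFA5 and NDUFB10, all subunits or assembly proteins of the respiratory chain. The groups differed: 37 of the 53 were lower and 1 higher than in PGC, 25 and 1 than in GSC, but 9 and 19 than in blastoderm. The median differences of the list were -0.60, -0.31 and 0.12 in that order. Of 30 oxidative stress and metal response genes, 7 were higher (23.3%) and 3 lower (10%), with 4 higher without CEF replicate 3 and 1 lower without blastoderm replicate 2. By group, 10 were higher and 14 lower than in PGC, 11 and 13 than in GSC, and 13 and 7 than in blastoderm. The median differences were -0.36, -0.02 and 0.18 in that order. HMOX1, the inducible haem oxygenase, read 7.85, 7.21 and 8.33 against 2.70 to 4.25 elsewhere (gap 3.60, 12.2-fold, adjusted p = 2.64e-08), and NQO1, another gene of the NRF2 response, was lower (gap -0.87, adjusted p = 0.00565). The NQO1 call was lost when all probe sets of the gene were averaged. Of 24 amino acid response genes, 6 were higher (25%) and 2 lower (8.33%), with gaps of 1.89 for the secreted hormone STC2, 1.49 for the serine synthesis enzyme PSPH and -1.37 for CTH, which makes cysteine.

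The 20 genes that fell farthest below all other samples began with EMB. EMB, the cell surface glycoprotein embigin, read 3.74, 3.44 and 3.93 in CEF, against 9.52 to 9.72 in blastoderm, 10.07 to 10.71 in GSC and 9.12 to 9.80 in PGC. The CEF arrays lay near the background and all others high (gap -5.79, SE 0.20, 55.2-fold, adjusted p = 2.87e-12). DSP, the desmosomal plaque protein desmoplakin, read 2.23, 1.93 and 2.24 against 7.18 to 9.63 (gap -5.14, at least 12.7-fold). CLDN1, a tight junction claudin, read 3.58, 3.70 and 3.75 against 7.48 to 12.06 (gap -4.02, 16.2-fold, adjusted p = 8.98e-12). EPCAM, an epithelial adhesion molecule, read 1.66, 1.76 and 2.11 in CEF, 11.97 to 12.15 in blastoderm, 9.71 to 10.12 in PGC and 4.86 to 6.27 in GSC (gap -3.87, at least 4.29-fold). For DSP and EPCAM no CEF array reached the background. GJB6, a gap junction connexin, had a gap of -5.03 (at least 11-fold).

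**Figure D4:**
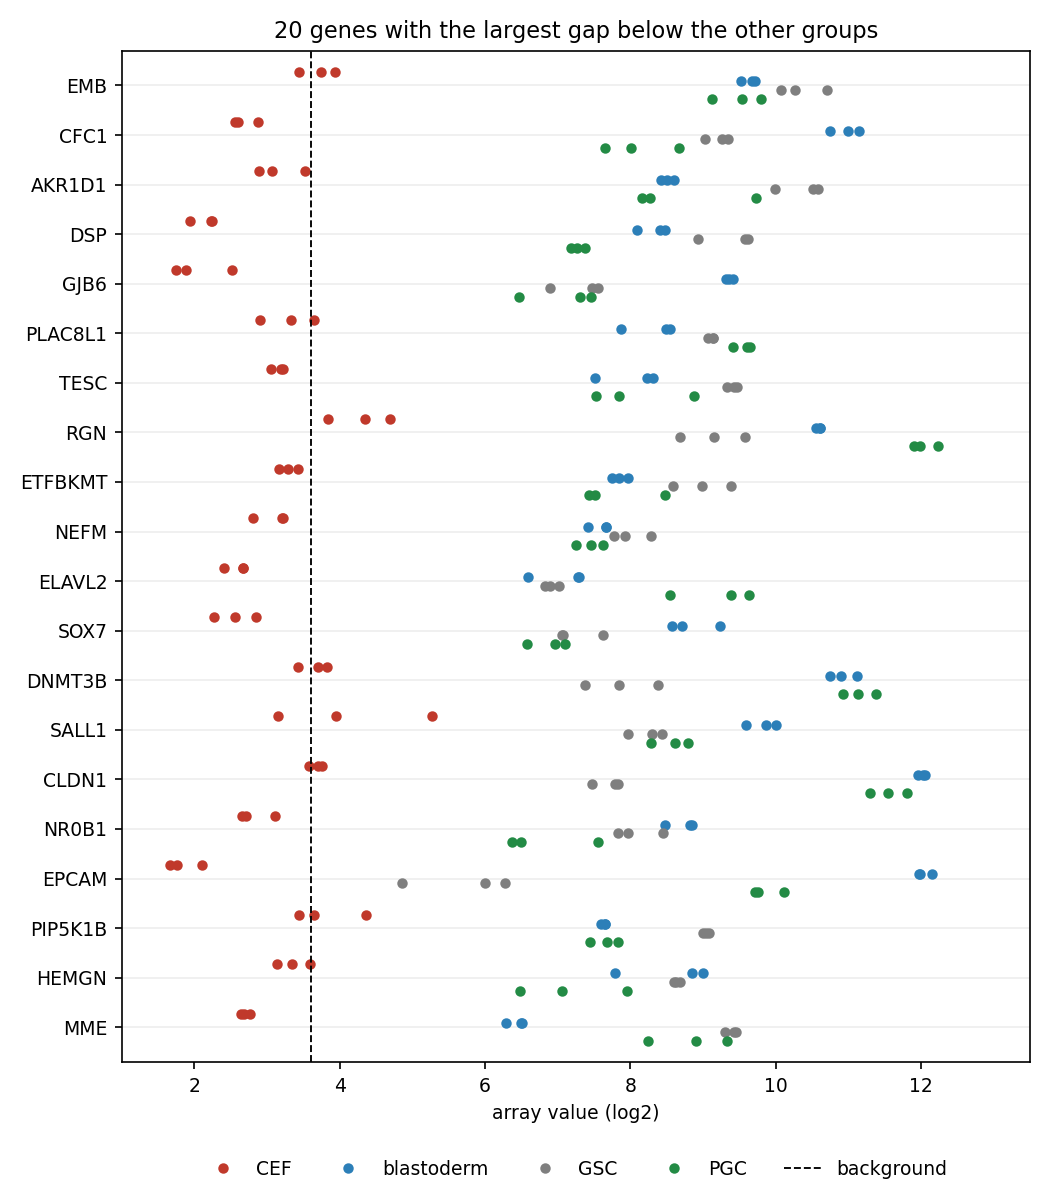
As the plot of the 20 genes higher in CEF, for the 20 with the largest gap below the nearest other group (horizontal axis: deposited log2 value, 1 dot per array, background of 3.61 dashed). Genes were chosen without overlap of arrays, so in each row the 3 CEF dots lie to the left of the other 9. For EMB CEF is at 3.44 to 3.93 and the rest at 9.12 to 10.71.

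CFC1, a co-receptor for Nodal, read 2.88, 2.56 and 2.60 in CEF, 10.75 to 11.15 in blastoderm, 9.04 to 9.34 in GSC and 7.66 to 8.66 in PGC (gap -5.43, at least 22.6-fold, adjusted p = 1.85e-11). DNMT3B, a de novo DNA methyltransferase, read 3.70, 3.82 and 3.43 against 7.38 to 11.38 (gap -4.22, 18.6-fold, adjusted p = 2.94e-10). Both were well above the background in all 3 uncultured groups. The transcription factors SOX7, SALL1 and NR0B1 had gaps of -4.32, -4.11 and -3.98, and the RNA-binding protein ELAVL2 one of -4.33. SALL1 differed among the CEF arrays, at 3.95, 3.15 and 5.27. Enzymes and other proteins completed the 20: AKR1D1, a steroid reductase (-5.35), RGN, the calcium-binding protein regucalcin (-4.85, 28.9-fold), the lysine methyltransferase ETFBKMT (-4.52), the neurofilament NEFM (-4.36), the phosphoinositide kinase PIP5K1B (-3.82), the erythroid nuclear protein HEMGN (-3.81), the metalloprotease MME (-3.73), PLAC8L1 (-5.01) and TESC, a calcium-binding protein (-4.86). C8orf22 and TSPAN13 came just past the 20, at -3.72 and -3.70.

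Of the 35 genes of cadherins and epithelial junctions, 4 were higher (11.4%) and 10 lower (28.6%). CDH13, a cadherin with a lipid anchor, was higher, at 9.72, 9.85 and 9.92 against 7.29, 7.13 and 5.70 in PGC, the nearest group (gap 3.12, 8.71-fold). CDH11, a cadherin of mesenchyme, was higher too (gap 1.75, 3.36-fold). PKP2, a desmosomal plaque protein, was also higher (gap 1.44, adjusted p = 0.0256), a call lost without CEF replicate 2, without CEF replicate 3 or without GSC replicate 3. Of 10 epithelium and epidermis markers 5 were lower (50%) and 1 higher, the keratin KRT14 (gap 1.68, 3.19-fold). Another keratin, KRT24, was lower (gap -3.69), after DSP (-5.14) and EPCAM (-3.87), which also belong to this list.

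Markers of germ cells and gonads were compared next. Of 22 germ cell genes 5 were lower than in each other group (22.7%) and 0 higher. Their median level was 2.87 to 3.11 in CEF, 3.81 to 4.03 in blastoderm, 4.14 to 4.23 in GSC and 6.66 to 7.88 in PGC. DAZL, a germ cell RNA-binding protein, had a gap of -3.67 (at least 5.84-fold), the helicase DDX4 one of -2.86 and the receptor KIT one of -2.80. Of 26 gonadal soma genes 7 were lower (26.9%) and 1 higher (3.85%). Their medians were 3.10 to 3.14 in CEF, 3.71 to 4.17 in blastoderm, 6.93 to 7.14 in GSC and 5.11 to 6.69 in PGC. The testis-determining factor of birds, DMRT1, had a gap of -2.36, and the gonadotropin receptor FSHR one of -1.87. The germ cell count was 8 without PGC replicate 3 and 1 with the offset of 64, and 3 gonadal soma genes were lower with an offset of 16 or 64. Of 26 early embryo and pluripotency genes 6 were lower than in each other group (23.1%) and 0 higher, and 3 were lower with the offset of 64. Their median difference was -2.10 from blastoderm and -0.86 from PGC but 0.08 from GSC, where 6 were higher in CEF and 6 lower. Of 16 kidney epithelium genes 2 were lower than in each other group (12.5%, near the share over all genes) and 0 higher. Taken by group, 13 were lower and 0 higher than in PGC, 7 and 0 than in GSC, and 4 and 1 than in blastoderm. The list medians were 3.09 to 3.32 in CEF, 3.52 to 3.70 in blastoderm, 3.79 to 4.65 in GSC and 6.29 to 6.81 in PGC. MYC and LIN28B, regulators of early embryonic growth, were not called: MYC differed from blastoderm by -3.0, from GSC by 0.94 and from PGC by 2.79. Every group mean of LIN28B was under the background, at 1.62 in CEF, 3.44 in blastoderm, 1.87 in GSC and 2.52 in PGC.

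Markers of other cell types of an embryo's body were counted too, beside shares over all genes of 10.7% higher and 9.31% lower. Of 23 skeletal muscle genes 6 were higher (26.1%) and 0 lower, and the summed linear level was 2306 to 2578 on the CEF arrays against 411 to 656 on the others. Most of the CEF sum came from ACTA1. The median level of the list was 3.30 to 3.47 in CEF and 2.75 to 3.29 elsewhere, under the background on every array. Without dim genes 3 of 8 were higher. ACTA1, the skeletal muscle actin, read 10.69, 10.95 and 10.70 in CEF against 4.94 to 7.53 elsewhere (gap 3.85, 14.4-fold, adjusted p = 8.87e-10), while MYL1 and TNNT2 had CEF means at or under the background. Of 8 tendon genes 5 were higher (62.5%) and 1 lower, among them COL12A1 (gap 3.31, 9.9-fold) with MKX and TNC, while THBS4 was lower (gap -1.80). Only 4 of the 8 had a CEF mean above the background, and COL12A1 and TNC also belong to the fibroblast identity and matrix list. Of 11 smooth muscle and pericyte genes 4 were higher (36.4%) and 0 lower, with the list medians given above. Of 19 cartilage and bone genes 3 were higher (15.8%) and 0 lower, led by the osteoblast factor RUNX2 (gap 1.12). COL10A1, another of the 3, was under the background in CEF at 1.95. Of 25 endothelium genes 2 were higher and 2 lower than in each other group (8% each). Taken by group, 12 were lower and 2 higher than in GSC, 9 and 5 than in PGC, but 3 and 9 than in blastoderm. The list medians were 4.06 to 4.17 in CEF, 3.42 to 3.58 in blastoderm, 5.67 to 6.17 in GSC and 4.11 to 5.79 in PGC. ERG, an ETS factor of endothelium and cartilage, read 6.12, 6.86 and 7.33 (gap 2.55, 5.84-fold), and the hyaluronan receptor LYVE1 was also higher (gap 2.19). CDH5, the defining cadherin, was under the background at 2.25. Of 15 erythroid genes 1 was higher (6.67%) and 2 lower (13.3%). Their medians were 3.59 to 3.77 in CEF, 3.61 to 3.88 in blastoderm, 6.99 to 8.27 in GSC and 6.25 to 7.29 in PGC. Of 21 neural genes 1 was higher (4.76%) and 3 lower (14.3%), the former being the intermediate filament NES (gap 1.21), while the neurofilament NEFL had a gap of -2.18.

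Some genes were above the background in CEF alone or in every group but CEF. Of 13008 genes, 112 were above it on the 3 CEF arrays and on none of the other 9, and 109 of these passed the 3 tests. Among the 20 largest gaps, INHBA, MKX, CDKN2A, CCL4, MYH15, THY1, PRRX2, FAP, SERPINB2, CDKN2B, C1QTNF3, TNC and FGF2 were of this kind. The reverse held for 154 genes, of which 145 passed, including CFC1, AKR1D1, DSP, GJB6, NR0B1 and EPCAM. Both sets were picked on the same values that the tests used, so the counts that passed give no separate support. Of 34 further probe sets that represent 20 of the 40 genes at both ends, 23 were called in the same direction, 0 in the opposite one and 11 were not called.

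The 3 CEF samples differed from each other in few genes. Of 9098 genes above the background in CEF, 569 spanned more than 1 log2 unit among the 3 arrays. Replicate 3 was the highest in 372 of these and replicate 1 the lowest in 283. The 5 genes in the right panel of the plot of genes that differ between CEF arrays were chosen after their values were seen. HINTW, a gene of the female W chromosome of birds, read 11.56, 2.67 and 6.88 in CEF against 9.19 to 11.08 on the other arrays. HNRNPKL, which is W-linked too, read 6.97, 3.97 and 3.86. The design gives mixed sex for the GSC and PGC pools and none for CEF, and the part of embryo sex in these values was not tested. LOC430910 read 7.45, 2.22 and 2.50 against 7.0 to 8.38 elsewhere, so it passed as lower (adjusted p = 0.00909) although CEF replicate 1 overlapped the others. LOC107049459 read 6.84, 2.28 and 2.34, and LOC374195 read 6.69, 2.17 and 2.69. Apart from these, the matrix genes THBS1, at 5.67, 7.90 and 8.19, and LOX, at 4.86, 6.66 and 6.97, were lowest in replicate 1.

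**Figure D5:**
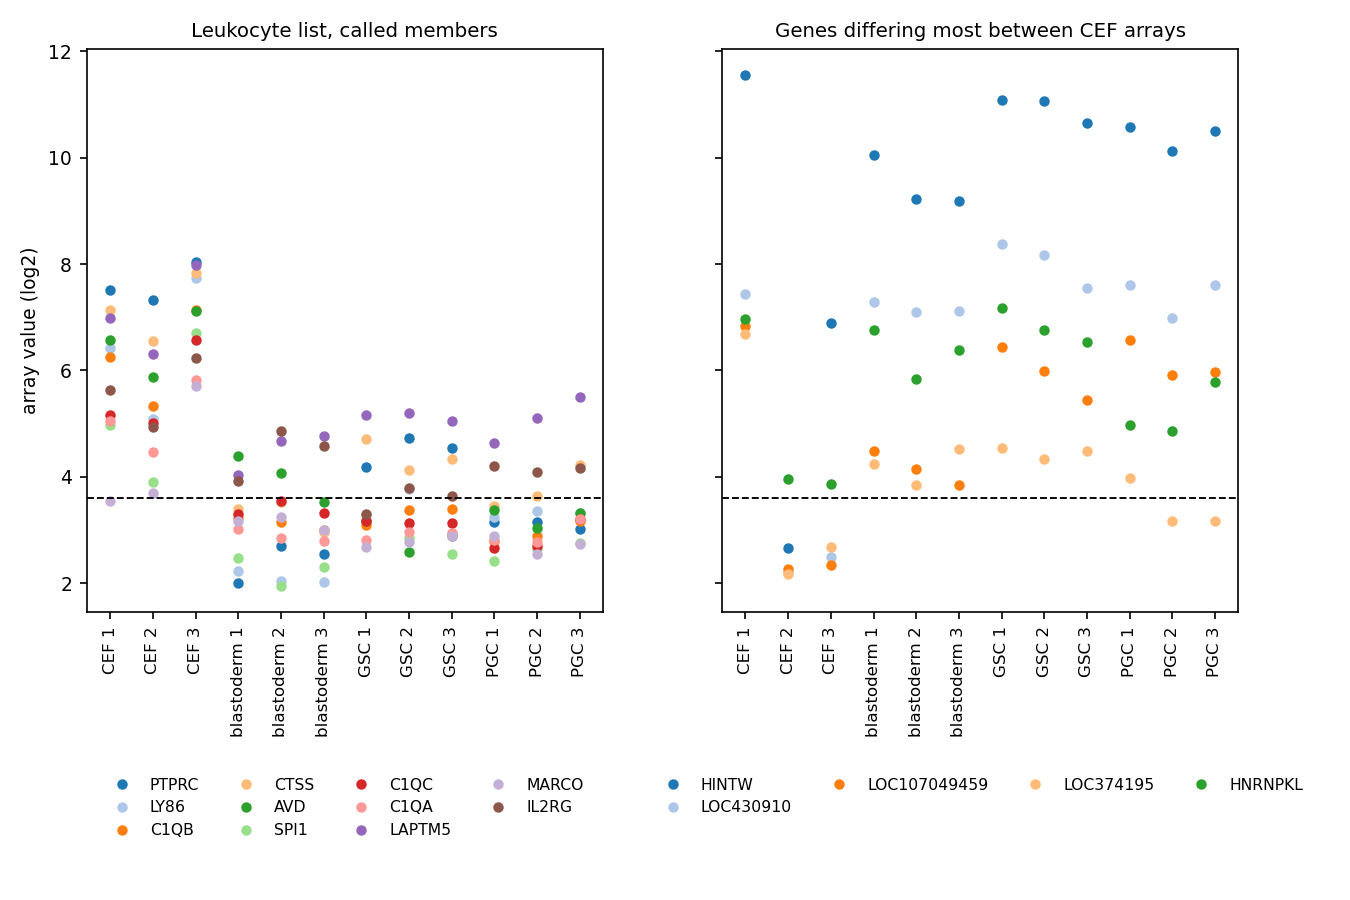
Deposited log2 values (vertical axis) on the 12 arrays of the 11 called leukocyte markers (left) and of 5 genes with the widest spread among the CEF arrays (right), with the background of 3.61 dashed. PTPRC is at 7.32 to 8.04 in CEF and at most 4.74 elsewhere, and HINTW is at 11.56, 2.67 and 6.88 on CEF arrays 1, 2 and 3.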

How the data were processed

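The authors deposited 1 table of log2 values for 38535 probe sets on 12 arrays, with values from 1.02 to 13.18. Per the submitters' processing notes MAS5 was used, while its version and role and the route from scans to log2 were not given in the sources used here. Left out were the 96 control and 746 viral or reporter probe sets, so 37693 were tested. GEO's platform annotation gave 27166 of these 1 symbol, 177 several and 10350 none. Symbols were updated through RefSeq, where 26851 gene IDs matched, and probe sets ending in _x_at stood for a gene only where it had no other. No CEF value was higher than 12.84.

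Group means were fitted over all 12 arrays with limma 3.58.1 in R 4.3.3 (lmFit, eBayes with intensity trend, two-sided, 8 residual degrees of freedom before moderation), with Benjamini-Hochberg adjustment over all probe sets per comparison. The fit was tested on simulated data. Background is the level that 99% of values of the viral and reporter sets stay under. Figures used Matplotlib 3.10.9, and permutation tests SciPy 1.17.1. The genes named are the 20 with the largest gap in each direction that were called against all 3 groups without overlap of arrays, up to 3 called members per direction of each list, and 17 given always. The gene lists and these rules were chosen with earlier results of these data known. The number of arrays, 3 a group, limits the precision. The p-values set each mean difference against the spread between samples, estimated jointly over all groups. Each sample held cells of several embryos, so this is spread between pools and not between embryos. Alternatives covered offsets, scaling, filters, the fit, probe set choice, the replicate block and leaving out each array. Promoter motifs were not analysed here.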

Additional observations from a re-analysis of the deposited data

Results flagged for a closer look

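A signal appeared outside the probe sets tested. Of the 746 probe sets for virus and reporter sequences, 11 had a CEF mean above the background of 3.61, and 1 of these was also higher in CEF than in each other group by more than 0.5. It read 10.28, 10.45 and 10.79 on the CEF arrays, a mean of 10.51, against means of 9.70 in GSC, 8.04 in PGC and 5.71 in blastoderm. It was not tested with the chicken probe sets, and which transcript it detects was not tested.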

How the results depend on the processing

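Counts here are of probe sets, of which 14619 differed from blastoderm, 12744 from GSC and 14544 from PGC, with 3101 higher and 2494 lower than in each group. No named gene's gap changed sign, but the balance of higher and lower calls did: median centring gave 8065 and 5871 against GSC and 8727 and 6842 against PGC, quantile normalisation 6547 and 6486, and 7476 and 7202, and an offset of 64 gave 6870 and 6716 against PGC, and the 2-fold minimum turned it against blastoderm. With a minimum of 2-fold the counts were 4547 (2396 higher, 2151 lower), 2699 (1167 and 1532) and 3328 (1425 and 1903), and 754 and 376 against each. Of gene lists, the 2-fold minimum left 17 higher matrix, 13 contractile, 7 adhesion, 6 cholesterol, 8 folding and 7 leukocyte genes. The filter on low values left 4563 higher than PGC. Against the mean of the 3 other groups 7010 were higher and 8231 lower, and against GSC and PGC alone 4402 and 4308. Adding 16 or 64 gave 3258 and 2051, or 3340 and 1681, against each, and moved the share of higher among these calls from 55.4% to 61.4% and 66.5%. Median centring gave 61.8% and put the median of all genes 0.11 above GSC. Leaving out 1 array gave 12722 to 15586 against blastoderm (higher 5968 to 7239, lower 6754 to 8347), 10307 to 13999 against GSC (4721 to 6658, 5586 to 7341), 12358 to 15102 against PGC (5882 to 7412, 6364 to 7690), and 2721 to 3198 higher and 2005 to 2701 lower than each. With the replicate block the counts were 14721, 12832 and 14629, with 3106 and 2566 against each, and all 152 named calls held. After subtraction of group means, same-numbered CEF and other arrays correlated at -0.05 to 0.17. The labels state no pairing, and 3 arrays a group are too few to settle whether the numbers pair samples. GSC and PGC were not compared in this way. Of the 152 named calls, 148 held with 16 added, 145 with 64, 105 with the 2-fold minimum, 146 when all probe sets of a gene were averaged and 146 to 151 without 1 array. Their gaps moved by over 1.5-fold in 81 with 16 added, 112 with 64 and 46 with averaged probe sets. GAPDH was called with centring, and COL3A1 and LIN28B with array weights. Values near the background and the compression of high intensities limit the folds. Promoter motifs were not run.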
